A study of Mus musculus with 19 samples.

Results

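The CYP2 enzymes are the largest group of cytochrome P450 monooxygenases in the mouse, and the genes examined here were every one whose symbol was Cyp2 followed by subfamily letters and a number. This rule used names alone and found 49 of the 49315 genes in the count tables, of which 36 passed the filter on low counts and were among the 15016 genes tested. The libraries were polyA RNA from the perfused livers of female mice on a C57Bl6/N background, with 5 Gramd1c+/+ and 4 Gramd1c-/- mice on a low cholesterol diet (0.02% wt/wt) and 5 of each genotype on a high cholesterol diet (0.2% wt/wt). Mice were switched from chow to these diets at 8 weeks of age and kept on them for 4 weeks, and the comparisons ask how loss of Gramd1c, which encodes the sterol transporter Aster-C, and dietary cholesterol each alter hepatic gene expression. The Gramd1c-/- mice came from strain C57BL/6N-Atm1Brd Gramd1ctm1a(KOMP)Wtsi/JMmucd and lacked the gene in the whole body, so that a change in the liver cannot be told apart from a response to loss of the gene elsewhere, and the controls came from the same heterozygous crosses.

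Cytochrome P450 enzymes of this family sit in the endoplasmic reticulum, carry a heme and take electrons from cytochrome P450 reductase and cytochrome b5 to add oxygen to drugs, steroids, fatty acids and vitamin D. In rodent liver many of them are switched on by the nuclear receptors CAR and PXR, several are made mainly in one sex under the control of growth hormone pulses, and several are made mainly around the central vein. A few, such as Cyp2r1 and Cyp2u1, are kept in 1 copy and act on the body's own substrates. The Cyp2a, Cyp2b, Cyp2c, Cyp2d and Cyp2j subfamilies instead lie in arrays of related copies, some of them near-identical.

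The disrupted gene was low in every knockout library, with 74 to 251 reads for Gramd1c in the 9 Gramd1c-/- mice and 674 to 1173 in the 10 Gramd1c+/+ mice. The tissue field of the labels names gonadal adipose tissue, but the cell type field and the protocol name liver, and the 8 hepatocyte markers summed to between 78870 and 131875 TPM (transcript counts divided by gene length and scaled to the same total in every library) while the adipocyte marker Adipoq reached at most 177 reads. Library totals ran from 27149972 to 34669648 counted reads. Several libraries differed from the rest, and 3 of them were left out together in an alternative fit. Gramd1c+/+ low replicate 2 held adrenal cortex and adipocyte transcripts (5525 reads of Cyp21a1, which is not of the Cyp2 family, and 4677 of Star, with adipocyte markers at 127 TPM against at most 12.9 elsewhere). Gramd1c-/- high replicate 3 held 2997 reads of the epithelial keratin Krt19 against at most 77 elsewhere, and Gramd1c-/- high replicate 5 was the highest or lowest of all 19 mice for 35% of tested genes. Of those kept, Gramd1c+/+ high replicate 3 was extreme for 24.1% of genes, and Gramd1c-/- high replicate 4 had Kupffer cell markers at 740 TPM against at most 377 TPM in the others.

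The members lay in 4 arrays and at scattered single loci. In the GRCm38 coordinates of the count tables, 15 members were on chromosome 7, 15 on chromosome 19, 8 on chromosome 15 and 8 on chromosome 4, and Cyp2u1, Cyp2w1 and Cyp2ab1 lay on chromosomes 3, 5 and 16. Promoter windows were found in RefSeq for 41 of the 49 members on build GRCm38.p6. They are printed for 6 members from 250 bases before to 30 after the start site, 5′ to 3′ on the strand of the gene. The first is that of Cyp2r1, the only member that passed the test in any comparison, at chr7:114562943-114563222 (- strand), with 2 CCAAT boxes in capitals.
Cyp2r1: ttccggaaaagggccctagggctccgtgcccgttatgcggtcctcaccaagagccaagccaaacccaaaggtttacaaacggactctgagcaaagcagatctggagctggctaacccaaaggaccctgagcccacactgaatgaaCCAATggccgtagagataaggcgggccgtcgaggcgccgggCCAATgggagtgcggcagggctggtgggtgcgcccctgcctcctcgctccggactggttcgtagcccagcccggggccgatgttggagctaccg
Cyp2a4 and Cyp2a5 are shown because the pair had 97.7% identical promoters and yet differed in how much they varied between mice. Capitals mark TATAAA and, after the start, a match to a sterol regulatory element, in Cyp2a4 at chr7:26306942-26307221 (+ strand) and Cyp2a5 at chr7:26835089-26835368 (+ strand).
Cyp2a4: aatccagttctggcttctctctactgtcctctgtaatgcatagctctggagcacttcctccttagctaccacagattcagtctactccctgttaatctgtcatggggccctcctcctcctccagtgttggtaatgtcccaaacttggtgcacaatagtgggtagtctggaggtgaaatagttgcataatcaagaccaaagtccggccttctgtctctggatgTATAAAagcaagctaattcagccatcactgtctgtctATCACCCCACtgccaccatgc
Cyp2a5: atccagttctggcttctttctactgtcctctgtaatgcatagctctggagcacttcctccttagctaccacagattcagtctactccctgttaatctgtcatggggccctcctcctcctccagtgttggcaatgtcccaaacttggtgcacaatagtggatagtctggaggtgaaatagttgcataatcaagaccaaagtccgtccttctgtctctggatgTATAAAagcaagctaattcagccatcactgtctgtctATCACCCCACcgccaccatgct
Cyp2b9 and Cyp2b13 are shown for the same reason, with the bases that differ between them in capitals, at chr7:26173159-26173438 (+ strand) and chr7:26061245-26061524 (+ strand).
Cyp2b9: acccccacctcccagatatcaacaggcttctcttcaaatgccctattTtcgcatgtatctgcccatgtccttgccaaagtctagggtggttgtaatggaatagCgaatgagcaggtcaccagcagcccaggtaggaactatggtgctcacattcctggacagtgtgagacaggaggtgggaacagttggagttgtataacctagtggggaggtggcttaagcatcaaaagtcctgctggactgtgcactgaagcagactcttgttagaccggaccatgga
Cyp2b13: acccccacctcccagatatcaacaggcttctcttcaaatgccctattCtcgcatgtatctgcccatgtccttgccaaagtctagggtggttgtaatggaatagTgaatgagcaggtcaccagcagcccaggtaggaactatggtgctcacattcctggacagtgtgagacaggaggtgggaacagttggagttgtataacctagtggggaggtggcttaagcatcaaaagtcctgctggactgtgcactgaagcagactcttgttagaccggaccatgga
Cyp2d9, a member that is made mainly in males, lay at chr15:82452127-82452406 (+ strand), with its TATAAA match, read on the opposite strand, in capitals.
Cyp2d9: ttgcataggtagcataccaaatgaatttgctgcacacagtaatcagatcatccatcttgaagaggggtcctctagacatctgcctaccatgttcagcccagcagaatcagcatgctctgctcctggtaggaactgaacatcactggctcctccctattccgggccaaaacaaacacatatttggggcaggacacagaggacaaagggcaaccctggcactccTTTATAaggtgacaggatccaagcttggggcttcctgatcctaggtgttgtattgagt

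The motifs were searched on both strands in windows of 300 bases, from 250 before to 50 after the start. TATAAA was found in 21 of the 41 members with a window, against 13.6% of all 32851 windows. The sterol regulatory element was found in Cyp2a4 and Cyp2a5 alone among the members and in 0.0913% of all windows, and in both it lay just after the start, at position 10 in Cyp2a4 and position 9 in Cyp2a5. CCAAT was found in 20 members (37.4% of all windows), the nuclear receptor half-site AGGTCA in 13 (16.3%), the STAT5 motif TTCNNNGAA in 2, Cyp2j11 and Cyp2j12 (8.30%), and the E-box CACGTG in Cyp2j6 (7.15%). The direct repeat 1 site, which holds the half-site, and the HNF1 palindrome were in no member window and in 0.0396% and 0.00913% of all windows. The promoters of Cyp2b9 and Cyp2b13 differed at 2 of 300 positions, -203 and -147, whereas each was 73.2% identical to that of Cyp2b10.

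Near-identical copies also limit what the counts can resolve. Of the 36 tested members, 18 had no 150-base stretch of transcript, the length of 1 read, that occurred in a transcript of another gene in the GENCODE M21 annotation. The share was highest for Cyp2c40 and Cyp2c69, with 20.3% and 20.2% of such stretches shared, largely with each other and with Cyp2c67 (13%) and Cyp2c68 (8.83%), so their separate levels are uncertain. It was 4.22% for Cyp2a4 and 4.56% for Cyp2a5, 5.04% for Cyp2b13, 1.71% for Cyp2d9 and 7.64% for Cyp2u1, which overlaps the antisense gene 4930534D22Rik. Cyp2r1 and Cyp2e1 shared none.

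Together the 49 genes took 2.66% of all TPM in the average mouse. By group the share was 2.70% ± 0.174 (SD, n = 5) in Gramd1c+/+ and 2.52% ± 0.130 (n = 4) in Gramd1c-/- mice on low cholesterol, and 2.79% ± 0.162 (n = 5) and 2.62% ± 0.428 (n = 5) on high cholesterol. These ranges overlapped in every pairing of groups. The lowest share of any mouse was 1.95%, in Gramd1c-/- high replicate 5.

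The most abundant member was Cyp2e1, the ethanol- and acetaminophen-oxidizing enzyme, at a mean of 10004 TPM, the 14th most abundant of all genes. Its level was 9715 ± 445 TPM in controls and 9461 ± 857 TPM in knockouts on low cholesterol, and 10678 ± 1045 and 10053 ± 1849 TPM on high cholesterol. The Cyp2c subfamily, which oxidizes drugs, steroids and arachidonic acid, summed to 8710 TPM, led by Cyp2c69 at 1652 TPM and Cyp2c37 at 1247 TPM. The Cyp2d enzymes summed to 3267 TPM, of which Cyp2d26 gave 1528 TPM and Cyp2d10 1269 TPM. The Cyp2a coumarin and steroid hydroxylases summed to 2194 TPM, and Cyp2f2, which is made around the portal vein, stood at 951 TPM. The arachidonic acid epoxygenases of the Cyp2j subfamily summed to 742 TPM and the Cyp2b enzymes to 739 TPM. Within Cyp2b, Cyp2b9 gave 476 TPM, Cyp2b13 239 TPM and the phenobarbital-inducible Cyp2b10 23.2 TPM. Of the subfamilies with 1 member, Cyp2e1 and Cyp2f2 were thus abundant, whereas the other tested ones were low, at 14.1 TPM for Cyp2r1, 8.97 for Cyp2g1, 5.68 for Cyp2u1 and 0.444 for Cyp2s1.

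The 13 members that did not pass the filter were Cyp2ab1, Cyp2b19, Cyp2b23, Cyp2c65, Cyp2c66, Cyp2d34, Cyp2j7, Cyp2j8, Cyp2j11, Cyp2j12, Cyp2j13, Cyp2t4 and Cyp2w1. Of these, Cyp2c66, Cyp2j12, Cyp2j13 and Cyp2w1 had no read in any mouse, which does not exclude a level below the depth of these libraries. Cyp2c65, an intestinal member, had 142 reads in Gramd1c-/- high replicate 3 and at most 2 in any other mouse. The remaining 8 reached at most 10 reads in any library.

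**Figure D1:**
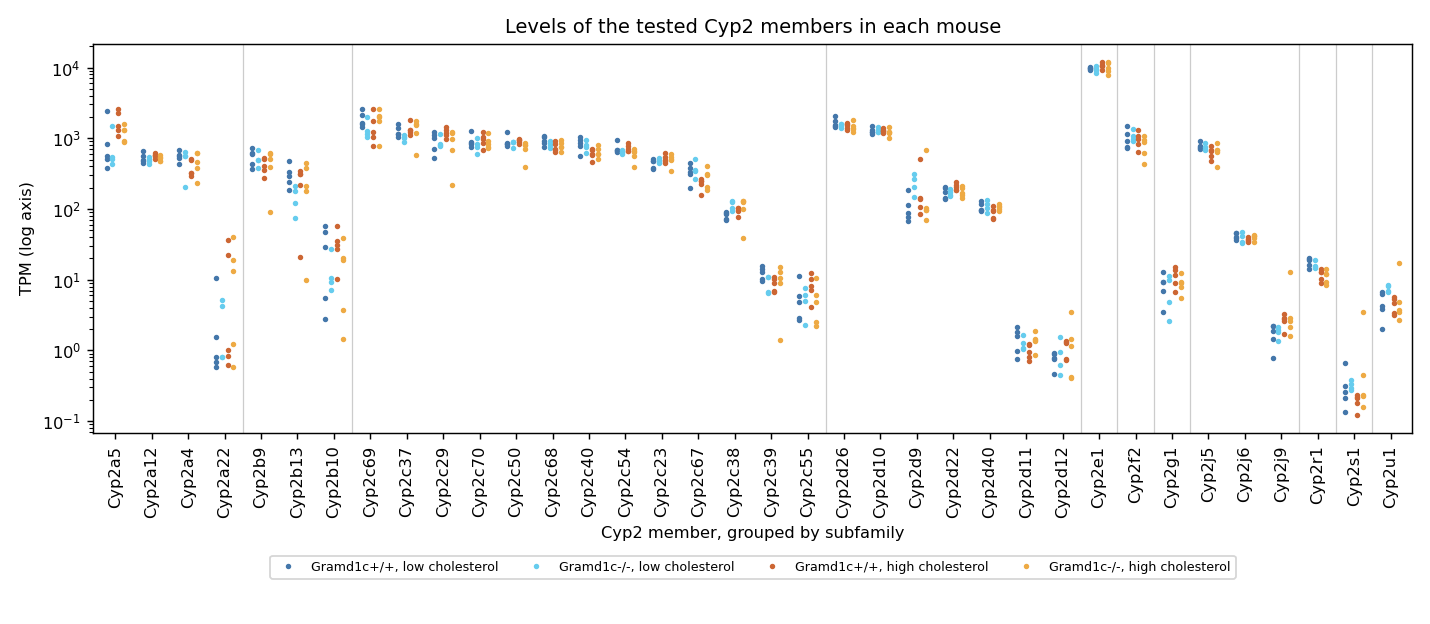
Levels in TPM (log axis) of the 36 tested Cyp2 members, grouped by subfamily along the horizontal axis, with 1 point per mouse coloured by genotype and diet. Cyp2e1 lies near 10004 TPM and Cyp2s1 near 0.444 TPM, and the points of Cyp2a22, Cyp2b13 and Cyp2b10 are the most widely spread.

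Cyp2r1, the microsomal vitamin D 25-hydroxylase, fell on high cholesterol. The gene lies at chr7:114549682-114562972 on the minus strand. On low cholesterol the 5 Gramd1c+/+ mice had 14.2, 19, 20.0, 16.3 and 19.5 TPM. The 4 Gramd1c-/- mice on that diet had 14.8, 15.5, 15.2 and 18.8 TPM. Both genotypes thus lay at or above 14.2 TPM. On high cholesterol the Gramd1c+/+ mice had 14.4, 10.2, 9.06, 12.7 and 12.7 TPM. The Gramd1c-/- mice had 9.18, 12.0, 12.0, 14.2 and 8.30 TPM. The Gramd1c-/- diet groups did not overlap (1 of 36 members, against 3.46% of all genes), and the Gramd1c+/+ groups (0 of 36 members without overlap, against 1.72% of all genes) overlapped by 1 mouse on high cholesterol, replicate 1, that stood just above the lowest mouse on low cholesterol.

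Averaged over genotypes, the fitted level of Cyp2r1 was 32.2% lower on high cholesterol, a log2 fold change of -0.56 (SE 0.096, 95% CI -0.76 to -0.36, edgeR quasi-likelihood test with Benjamini-Hochberg adjusted p = 0.0027). It was the only one of the 36 members called in that comparison, where 1.3% of all 15016 tested genes were called and 0.852% were called lower. The fall was -0.56 (SE 0.132) in Gramd1c+/+ mice and -0.56 (SE 0.140) in Gramd1c-/- mice, and the difference between these 2 falls was -0.0044 with a 95% CI of -0.40 to 0.40 (adjusted p = 1.0). Within a single genotype the call did not pass, with edgeR adjusted p = 0.089 in Gramd1c+/+ and 0.146 in Gramd1c-/- mice. The exact two-sided permutation p of mean TPM was 0.0159 in each, and 0.561 and 0.691 after adjustment over all genes. In Gramd1c+/+ mice it passed without high replicate 1 (adjusted p = 0.0439) or without Gramd1c-/- high replicate 5 (adjusted p = 0.0458), and over all fits that left out 1 mouse its adjusted p ran from 0.0439 to 0.315.

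The averaged fall of Cyp2r1 was present without each mouse in turn, with log2 fold changes of -0.60 to -0.52 and adjusted p of 0.00143 to 0.00972. Albumin, which gives most of the summed TPM of the 8 hepatocyte markers, was also lower on high cholesterol without a call, at a log2 fold change of -0.39 (SE 0.107, edgeR adjusted p = 0.0816). Of the 8 markers 7 had negative changes and none was called, with Serpina1c at -0.021 and Ttr at 0.047. On low cholesterol the summed TPM spanned 96099 to 131875 in the controls and 111804 to 129591 in the knockouts. On high cholesterol it spanned 85085 to 112213 and 78870 to 103832. Fewer hepatocytes and less of a transcript per cell cannot be told apart in whole liver, and the part of the lower albumin level in the Cyp2r1 difference was not tested. Cyp2e1, also a hepatocyte gene, had a log2 fold change of 0.12 in the same comparison.

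**Figure D2:**
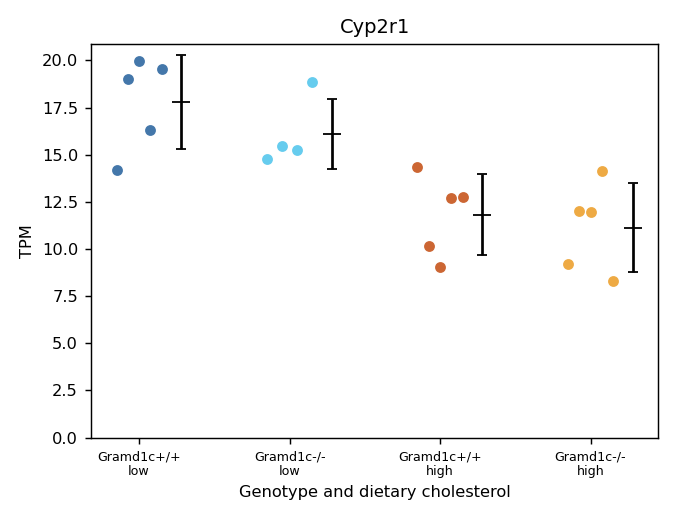
Cyp2r1 in TPM by genotype and dietary cholesterol, with 1 point per mouse and, beside the points, a bar at the mean with its SD (n = 5, 4, 5 and 5). Means were 17.8 and 16.1 TPM on low cholesterol and 11.8 and 11.1 TPM on high cholesterol.

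No other member passed the test for diet. Averaged over genotypes, 19 of the 36 log2 fold changes were positive, beside 53% of all genes, and 17 negative, with a median of 0.061 against 0.017 over all tested genes, and 7 members (19.4%) had an unadjusted edgeR p below 0.05 beside 18.3% of all genes. In Gramd1c+/+ mice and in Gramd1c-/- mice alone no member was called, where 0.44% and 0.326% of all genes were. In each of these, 3 members had an unadjusted p below 0.05, against 7.93% and 11.4% of all genes.

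Among the arachidonic acid epoxygenases, Cyp2j5 stood at 775 ± 76.8 and 753 ± 79.1 TPM on low cholesterol and at 631 ± 114 and 650 ± 166 TPM on high cholesterol in Gramd1c+/+ and Gramd1c-/- mice. Its averaged log2 fold change was -0.26 (SE 0.101, edgeR adjusted p = 0.185). Cyp2j9 had the opposite sign, 0.99 (SE 0.331, adjusted p = 0.135), with 1.88, 2.19, 0.778, 1.44 and 2.23 TPM in Gramd1c+/+ mice on low cholesterol and 2.73, 3.31, 1.71, 2.61 and 2.87 TPM on high cholesterol. In Gramd1c-/- mice the values were 1.81, 1.95, 1.36 and 2.16 TPM on low and 2.16, 1.60, 2.64, 2.89 and 12.7 TPM on high cholesterol. Without the mouse at 12.7 TPM, Gramd1c-/- high replicate 5, the averaged value was 0.49 (adjusted p = 0.176). Of the 12 genes on a list of epoxygenases, 11 were tested, of which 5 were positive and 6 negative, and none was called. The symbol Cyp2c44 on that list matched no member, and the tested Cyp2c23 was not on it.

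Cyp2c40 and Cyp2c67, which hold identical stretches of transcript, had negative changes. Cyp2c40 had 831 ± 175 and 781 ± 136 TPM on low and 609 ± 93.6 and 642 ± 110 TPM on high cholesterol, a log2 fold change of -0.35 (SE 0.129, adjusted p = 0.175). Cyp2c67 had 334 ± 94.6 and 368 ± 106 TPM on low and 229 ± 41.1 and 283 ± 89.4 TPM on high cholesterol, a log2 fold change of -0.44 (SE 0.168, adjusted p = 0.186). Neither passed the test.

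Cyp2a5, the coumarin 7-hydroxylase, ran the other way in most mice. On low cholesterol the Gramd1c+/+ mice had 502, 377, 819, 569 and 2462 TPM. On high cholesterol they had 2578, 2249, 1318, 1506 and 1087 TPM. In Gramd1c-/- mice the values were 1500, 541, 505 and 428 TPM on low and 899, 1592, 1311, 1318 and 922 TPM on high cholesterol. One mouse of each genotype on low cholesterol thus lay within or above the range seen on high cholesterol. The averaged log2 fold change was 0.79 (SE 0.336, edgeR adjusted p = 0.226), and without Gramd1c+/+ low replicate 5, the mouse at 2462 TPM, it was 1.16 (SE 0.268, adjusted p = 0.0291). Its near-copy Cyp2a4 had 552 ± 89.3 TPM in Gramd1c+/+ and 490 ± 192 TPM in Gramd1c-/- mice on low cholesterol. On high cholesterol Cyp2a4 had 389 ± 104 and 461 ± 164 TPM. Neither gene was called for diet in the fit of all mice, and a difference between the pair was not tested. Their windows printed above hold the same TATAAA and sterol regulatory element.

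Loss of Gramd1c gave no called member on either diet. On low cholesterol 0 of 36 members passed, where 0.00666% of all genes did, and no member had an unadjusted edgeR p below 0.05 against 2.66% of all genes. DESeq2 also called none. On high cholesterol and averaged over diets 0 of 36 passed as well, with the same share of all genes called, and 3 members in each had an unadjusted p below 0.05, against 2.42% and 2.98% of all genes. No member was called for the interaction of genotype and diet, and neither was any other gene (0%), with 1 member at an unadjusted p below 0.05 against 1.66% of all genes. The 95% intervals were narrow for some members, so that for Cyp2e1 the change on loss of Gramd1c lay between -0.35 and 0.27 on the log2 scale on low cholesterol, and were wide for others, as for Cyp2a22 (-2.69 to 2.48).

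More fitted changes were negative than positive in the knockout. On low cholesterol 25 of 36 log2 fold changes were negative, with a median of -0.10 against a median of -0.0014 over all tested genes, of which 49.7% were positive. On high cholesterol 20 of 36 were negative and 16 positive (median -0.059), where 52.2% of all genes were positive. Averaged over diets 27 of 36 were negative (median -0.095 against 0.0081, with 52.6% of all genes positive). These included all 4 Cyp2a, all 3 Cyp2b and 11 of 13 Cyp2c members, with the Cyp2a values reaching up to -5.65e-05. On high cholesterol alone 2 of 4 Cyp2a, 1 of 3 Cyp2b and 5 of 13 Cyp2c members were positive. None of these single differences passed the test.

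On low cholesterol the groups did not overlap for 2 of 36 members, Cyp2c38 and Cyp2u1, both higher in the knockout, against 1.73% of all genes. Cyp2c38, an arachidonic acid oxygenase made mainly in females, had 89.2, 89.1, 85.9, 70.2 and 73.2 TPM in Gramd1c+/+ mice. In Gramd1c-/- mice it had 130, 105, 124 and 94.9 TPM. The log2 fold change was 0.48 (SE 0.233, edgeR adjusted p = 0.999), and the exact two-sided permutation p of mean TPM was 0.00794, the smallest that 126 splits allow, or 0.865 after adjustment over all genes. Cyp2u1, a long-chain fatty acid hydroxylase, had 6.34, 4.31, 2.0, 6.74 and 3.90 TPM in Gramd1c+/+ and 6.88, 6.77, 8.19 and 8.44 TPM in Gramd1c-/- mice, so the groups were only just apart. Its log2 fold change was 0.70 (SE 0.452, edgeR adjusted p = 0.999; exact permutation p = 0.0397, or 0.865 after adjustment over all genes).

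On high cholesterol the same members overlapped. Cyp2c38 stood at 94.3 ± 11 TPM in Gramd1c+/+ and 104 ± 38.3 TPM in Gramd1c-/- mice, and Cyp2u1 at 4.45 ± 1.16 and 6.4 ± 6.15 TPM. The Cyp2u1 value rests on replicate 5 at 17.3 TPM, without which the knockout mean was 3.67 TPM, and the log2 fold change turned from 0.50 to -0.37 (SE 0.278, edgeR adjusted p = 1.0; chosen after the data were seen). No member was without overlap between genotypes there, against 0.246% of all genes. The same mice enter the genotype and the diet comparisons, so these contrasts share samples.

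Members known for sex-dependent expression were among those with the smallest permutation p on low cholesterol. Cyp2d9, a steroid 16-alpha-hydroxylase made mainly in males, had 112, 78.1, 67.3, 182 and 86.6 TPM in Gramd1c+/+ and 205, 268, 146 and 311 TPM in Gramd1c-/- mice. Cyp2b13, a female-predominant member, had 291, 241, 480, 188 and 331 TPM in Gramd1c+/+ and 214, 119, 177 and 74.8 TPM in Gramd1c-/- mice. For Cyp2d9 all but 1 knockout lay above every control, and for Cyp2b13 all but 1 knockout lay below every control. The log2 fold changes were 1.12 (SE 0.623) and -1.07 (SE 0.690), with edgeR adjusted p = 0.999 for both and exact permutation p of 0.0238 and 0.0317, or 0.865 for each after adjustment over all genes. Both members of the list of male-predominant genes, Cyp2d9 and Cyp2u1, were positive. On the female-predominant list 8 of 9 members were negative, the exception being Cyp2c38, beside 25 of all 36 members. Over all tested genes 49.7% were positive. These lists were drawn up with earlier results of these data in view. On high cholesterol 6 of the 9 female-predominant members were positive, beside 16 of all 36 members and 52.2% of all genes.

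Known targets of the nuclear receptors CAR and PXR gave no call for genotype. Cyp2b10, the classical CAR target, had 56.8, 5.52, 29.4, 2.78 and 47.5 TPM in Gramd1c+/+ and 27.1, 10.5, 7.07 and 9.23 TPM in Gramd1c-/- mice on low cholesterol. On high cholesterol it had 30.7, 56.9, 10.3, 35.5 and 27.3 TPM in Gramd1c+/+ and 3.69, 18.7, 20.2, 39.4 and 1.44 TPM in Gramd1c-/- mice. The genotypes overlapped on both diets, and the averaged log2 fold change was -1.09 (SE 0.552, edgeR adjusted p = 0.999). All 7 listed targets (Cyp2b10, Cyp2c29, Cyp2c37, Cyp2c50, Cyp2c54, Cyp2c55 and Cyp2a5) were negative on each diet. Their medians were -0.16 on low and -0.59 on high cholesterol, and none was called. On low cholesterol 11 of the 36 members and 49.7% of all genes were positive, and on high cholesterol 16 members and 52.2%. A list of 6 members made around the central vein, Cyp2e1 and genes also named here, was likewise all negative on each diet. Of 10 genes outside the family that are made there, 6 were positive on low and 3 on high cholesterol. All of these lists were drawn up with earlier results of these data in view. In Gramd1c+/+ mice the same 7 were all positive for high against low cholesterol (median 0.17, where 51.2% of all genes were positive), and in Gramd1c-/- mice 3 were positive and 4 negative (52.6% of all genes).

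The CAR targets Cyp2c50 and Cyp2c54 made up 2 of the 3 members with an unadjusted p below 0.05 on high cholesterol. Cyp2c50 had 950, 819, 936, 962 and 888 TPM in Gramd1c+/+ and 812, 704, 853, 807 and 398 TPM in Gramd1c-/- mice. The log2 fold change was -0.44 (SE 0.173, edgeR adjusted p = 1.0; exact permutation p = 0.0159, or 1.0 after adjustment over all genes), and -0.30 without the mouse at 398 TPM, replicate 5. Cyp2c54 had 843, 664, 780, 698 and 660 TPM in Gramd1c+/+ and 712, 554, 667, 628 and 397 TPM in Gramd1c-/- mice. Its log2 fold change was -0.39 (SE 0.164, edgeR adjusted p = 1.0), and ran from -0.51 to -0.30 with single mice left out. The value of 397 TPM was in the same replicate 5, and the genotypes overlapped. The third was Cyp2s1, a member of epithelia outside the liver, at 0.183, 0.216, 0.121, 0.236 and 0.212 TPM in Gramd1c+/+ and 0.236, 0.228, 3.53, 0.443 and 0.161 TPM in Gramd1c-/- mice. Its log2 fold change of 2.03 (SE 0.635, adjusted p = 1.0) was 0.45 without replicate 3, the library with 2997 reads of Krt19, 353 of Krt7 and 434 of Epcam, each above every other mouse. Spp1, the fourth cholangiocyte marker listed, was at 1664 reads there, within the 890 to 1829 of all mice. The same library held 698 reads of the pancreatic gene Ctrb1 and 145 of the intestinal gene Vil1, against at most 11 and 12 elsewhere. The part of other tissues in the Cyp2s1 reads was not tested.

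**Figure D3:**
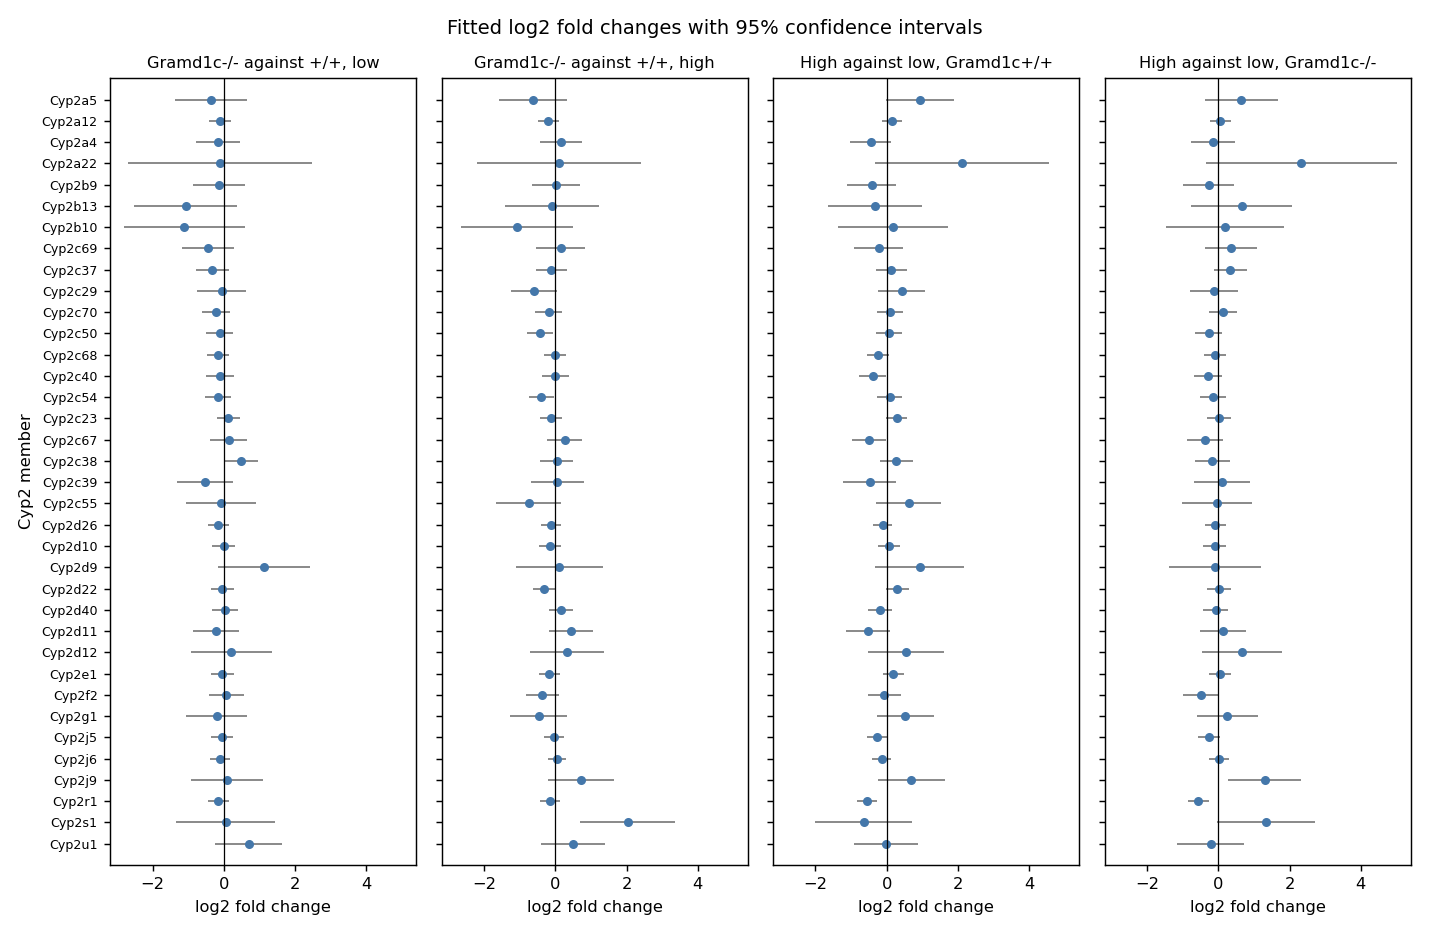
Log2 fold changes (points) with 95% confidence intervals (lines) from the edgeR fit for the 36 tested members in 4 comparisons, with the members grouped by subfamily down the vertical axis. For Cyp2r1 the interval lies below 0 in both diet panels, and in the panel of genotypes on low cholesterol no interval leaves 0 out.

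The genes that serve the CYP2 enzymes gave no call either. Of 7 electron donors and binding partners (among them Por and cytochrome b5), 12 genes of heme supply and 22 regulators, none passed the test in any of the 7 comparisons. For diet averaged over genotypes the smallest adjusted p in each list was 0.0953 for Cyb5b, a mitochondrial cytochrome b5, at a log2 fold change of -0.44, 0.177 for Cpox of heme synthesis at -0.34, and 0.0825 for Nr1i3, which encodes CAR, at 0.67. Nr1i3 stood at 27.7 ± 9.59 and 25.8 ± 4.30 TPM on low and 34.8 ± 8.43 and 50.2 ± 20.6 TPM on high cholesterol. For genotype averaged over diets the smallest unadjusted p among the regulators was that of Bcl6, a repressor in male liver, at a log2 fold change of 0.75 (SE 0.236, edgeR adjusted p = 0.999). Bcl6 was at 2.42 ± 0.325 and 5.02 ± 4.23 TPM on low cholesterol and at 2.81 ± 0.831 and 4.07 ± 0.897 TPM on high cholesterol in Gramd1c+/+ and Gramd1c-/- mice. The low cholesterol knockouts had 2.26, 3.30, 3.19 and 11.3 TPM, and without the last, replicate 4, the averaged change was 0.39 (SE 0.162, edgeR adjusted p = 1.0; chosen after the data were seen). Of 10 other genes made around the central vein and 10 made around the portal vein, none was called in any comparison.

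Members differed widely in their spread between mice of 1 group. The within-group SD of log2(TPM + 1) was 1.74 for Cyp2a22, 1.47 for Cyp2b13, 1.39 for Cyp2b10 and 0.92 for Cyp2d9. The median over all tested genes was 0.24, and the added 1 narrows the spread of genes near or below 1 TPM. At the other end stood Cyp2d10 at 0.14, Cyp2j6 at 0.15, Cyp2a12 at 0.16 and Cyp2e1 at 0.17. Members of 1 subfamily could thus lie at both ends, as Cyp2a12 and Cyp2a22 did.

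Cyp2a22 had mice above and below its largest gap in every combination of genotype and diet. Its values ran from 0.579 to 39.9 TPM with no mouse between 1.55 and 4.27 TPM. This gap, the largest on the log2 scale, was picked from these same values, so 2 separate classes are not shown. Above it, mice on low cholesterol were at 4.27 to 10.5 TPM and mice on high cholesterol at 13.2 to 39.9 TPM. As the gap was picked from the values, this split by diet is a description only. Over all mice the diets overlapped, at 0.579 to 10.5 TPM on low and 0.587 to 39.9 TPM on high cholesterol. The 8 mice above this gap were 1 of 5 controls and 2 of 4 knockouts on low cholesterol, and 2 of 5 controls and 3 of 5 knockouts on high cholesterol. Its diet log2 fold change averaged over genotypes was 2.22 (SE 0.871, edgeR adjusted p = 0.194).

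Cyp2b13 and Cyp2d9 diverged in the same 2 mice on high cholesterol. Gramd1c+/+ replicate 1 had 21.0 TPM of Cyp2b13, with the other 4 at 222 to 340 TPM, and 503 TPM of Cyp2d9, with the other 4 at 85.9 to 141 TPM. Gramd1c-/- replicate 5 had 10.1 TPM of Cyp2b13, with the other 4 at 180 to 442 TPM, and 688 TPM of Cyp2d9, with the other 4 at 70.5 to 102 TPM. Cyp2b9, whose promoter window differs from that of Cyp2b13 at the 2 positions shown above, stood at 354 TPM in the first of these mice, within the group's range of 270 to 521 TPM, and at 89.5 TPM in the second, below the other 4 at 396 to 619 TPM.

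Gramd1c-/- high replicate 5 was the highest or lowest of all 19 mice for 20 of the 36 members (55.6%), beside 35% of all tested genes. It was lowest for 16, among them Cyp2c29 at 215 TPM, Cyp2c37 at 582 TPM, Cyp2c39 at 1.39 TPM and Cyp2e1 at 7801 TPM, and highest for Cyp2d9, Cyp2u1 (17.3 TPM), Cyp2j9 (12.7 TPM) and Cyp2d12 (3.45 TPM). Gramd1c+/+ low replicate 3 was the extreme mouse for 14 members (38.9%, beside 16.5% of all genes) and the highest for 11 of these. With Gramd1c+/+ low replicate 2 and Gramd1c-/- high replicates 3 and 5 left out, an alternative chosen after the data were seen, Cyp2r1 was again the only member called in the averaged diet comparison, and no member was called for genotype.

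**Figure D4:**
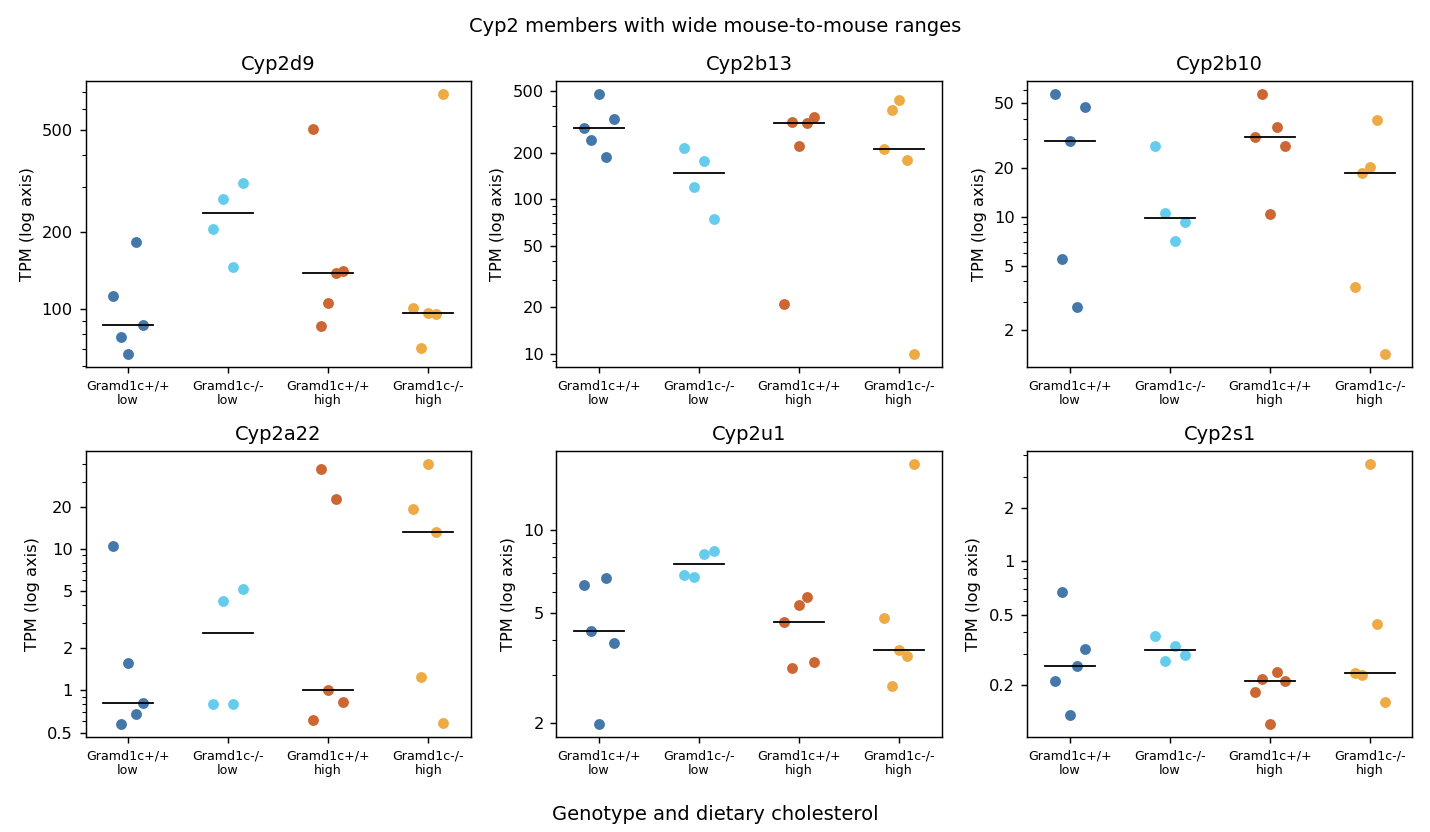
TPM (log axis) of 6 members by genotype and dietary cholesterol, with 1 point per mouse and a line at the group median. The highest point of Cyp2d9, 688 TPM, and the lowest of Cyp2b13, 10.1 TPM, are the same Gramd1c-/- mouse on high cholesterol. Cyp2a22 has mice above and below its largest gap, between 1.55 and 4.27 TPM, in all 4 groups.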

How the data were processed

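Deposited read counts per gene, raw and with gene lengths, were used for 19 livers. Per the submitters' processing notes, reads were aligned with STAR 2.5.2b to GRCm38; which counter, strandedness and gene annotation version they used is not given in the sources used. TPM was computed from the deposited counts and lengths and was used for display and for exact two-sided permutation tests over mice. Counts were tested in edgeR 4.0.16 (filterByExpr with a minimum count of 10, TMM, quasi-likelihood test, all 4 groups in 1 fit, R 4.3.3), with Benjamini-Hochberg adjustment over all 15016 genes and a threshold of 0.05. The code was tested on simulated data. Each library was 1 mouse, so p-values reflect spread between mice. Alternatives used DESeq2 1.42.0, limma 3.58.1 on log2(TPM + 1), a replicate block, other filters and single mice left out. Members named were those called, the 2 most abundant per subfamily and the 6 with the smallest p per comparison; Cyp2a4, Cyp2b9 and Cyp2d12 values and single mice were added where the text turned on them. The members and lists were chosen with earlier results of these data known.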

Additional observations from a re-analysis of the deposited data

Results flagged for a closer look

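In 13 of 120 tested pairs of a member and a group (10.8%), 1 mouse lay far from the rest of its group. The rule is set to mark about 1 in 20 groups by chance for normally distributed values, it marked 6.47% of 60064 pairs over all tested genes, and the members were named partly for small p, so these shares are a description. In Gramd1c+/+ mice on low cholesterol, Cyp2a22 was at 10.5 TPM in replicate 1 against 0.579 to 1.55 in the rest. Cyp2a5 was at 2462 TPM in replicate 5 against 377 to 819. Cyp2c50 was at 1206 TPM in replicate 3 against 766 to 862, and Cyp2c54 at 937 TPM in the same mouse against 631 to 686. In Gramd1c-/- mice on low cholesterol, Cyp2a5 was at 1500 TPM and Cyp2b10 at 27.1 TPM in replicate 1, against 428 to 541 and 7.07 to 10.5. Cyp2c50 was at 725 TPM in replicate 3 against 872 to 874, and Cyp2r1 at 18.8 TPM in replicate 4 against 14.8 to 15.5. On high cholesterol, Cyp2d9 was at 503 TPM in Gramd1c+/+ replicate 1 against 85.9 to 141. Gramd1c-/- replicate 5 held Cyp2d9 at 688 TPM against 70.5 to 102, Cyp2j9 at 12.7 TPM against 1.60 to 2.89 and Cyp2u1 at 17.3 TPM against 2.72 to 4.8. Cyp2s1 was at 3.53 TPM in Gramd1c-/- replicate 3 against 0.161 to 0.443.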

How the results depend on the processing

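The fall of Cyp2r1 on high cholesterol averaged over genotypes passed in all 9 other settings, with log2 fold changes of -0.58 to -0.51 and adjusted p of 1.62e-05 to 0.0242. DESeq2 called 1 member in Gramd1c+/+ and 1 in Gramd1c-/- mice for diet, Cyp2r1 in both (log2 fold changes -0.57 and -0.56, adjusted p = 0.0145 and 0.0487), where edgeR called 0. With single mice left out, members called ran from 0 to 1 in Gramd1c+/+ mice and from 1 to 2 averaged over genotypes, Cyp2a5 being added without Gramd1c+/+ low replicate 5. Cyp2s1 for diet in Gramd1c-/- mice turned to -0.086 without Gramd1c+/+ low replicate 2 and Gramd1c-/- high replicates 3 and 5, chosen after the data were seen, and ran from -0.24 to 1.59 with single mice left out, the lowest without replicate 3. Over all genes the averaged diet comparison called 195 in edgeR and 600 in DESeq2 (17597 tested), and in single genotypes 66 and 49 against 110 and 91; the causes were not tested. Same-numbered mice of different groups did not deviate together on average (mean r = -0.0965 over 27 pairs, 0.0242 over 108 others). This gave no sign that numbers pair mice, but a mean over 27 pairs that share mice cannot exclude it. A replicate block called 122 genes for averaged diet and 1 member, Cyp2r1, and changed no other member call. Members expressed near the filter are limited by depth.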
